A study of Mus musculus with 28 samples.

Results

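The genes of cholesterol and fatty acid synthesis described here are 30 genes chosen by symbol, all of which were present among the 17342 genes of the RNA-seq table. They comprise a sterol arm of 18 enzymes, a fatty acid arm of 8 enzymes, and 4 genes of regulation and transport. The cells were mouse embryonic stem cells (ESCs), pluripotent cells of the early embryo, of the V6.5 line, which is male and of mixed 129 and C57BL/6 background. Every group was cultured on feeder fibroblasts in serum medium containing LIF, a cytokine that maintains self-renewal, then pre-plated to remove feeders and held on gelatin overnight. The groups were Tet2 wildtype (Tet2-WT, n = 3 independent ESC samples), Tet2 mutant (Tet2-Mut, n = 2 clones) and Tet2 knockout (Tet2-KO, n = 2 clones). The Tet2 protein is a dioxygenase acting on methylated cytosine. The study's question is what Tet2 does apart from this catalysis, and the labels do not describe the mutation. A clone derives from 1 founder cell, so a difference between groups of 2 clones cannot be told apart from differences that arose between clones.

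Cholesterol is built from acetyl-CoA through the mevalonate pathway to squalene, which is closed into lanosterol and then trimmed and reduced to cholesterol. Fatty acids are built from the same acetyl-CoA as saturated chains, which elongases lengthen and desaturases give double bonds. Both pathways are transcribed under the control of SREBP factors, which Srebf1 and Srebf2 encode, and which are released from the endoplasmic reticulum when membrane sterol is low. Insig1 holds them there, and is itself an SREBP target.

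Levels are normalized counts, the authors' gene counts divided by a size factor per library. The reads assigned to genes numbered from 41909397 to 58476612 per library. The lowest member, Tm7sf2, had a normalized count of 309 in its lowest library. Counting error was not set against the spread between libraries for single members. Differences were tested with limma on log2(normalized count + 1) over 17338 genes, with Benjamini-Hochberg adjustment at 0.05. A gene is said to have risen or fallen only where it passed. Tet2 itself was lower in both Tet2-KO libraries (4624 and 5206) than in the Tet2-WT libraries (10245 to 12074) and the Tet2-Mut libraries (9992 and 13181). The Tet2-KO and Tet2-Mut comparisons with Tet2-WT share the Tet2-WT libraries. All 10 ESC markers listed were detected in every library.

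**Figure D1:**
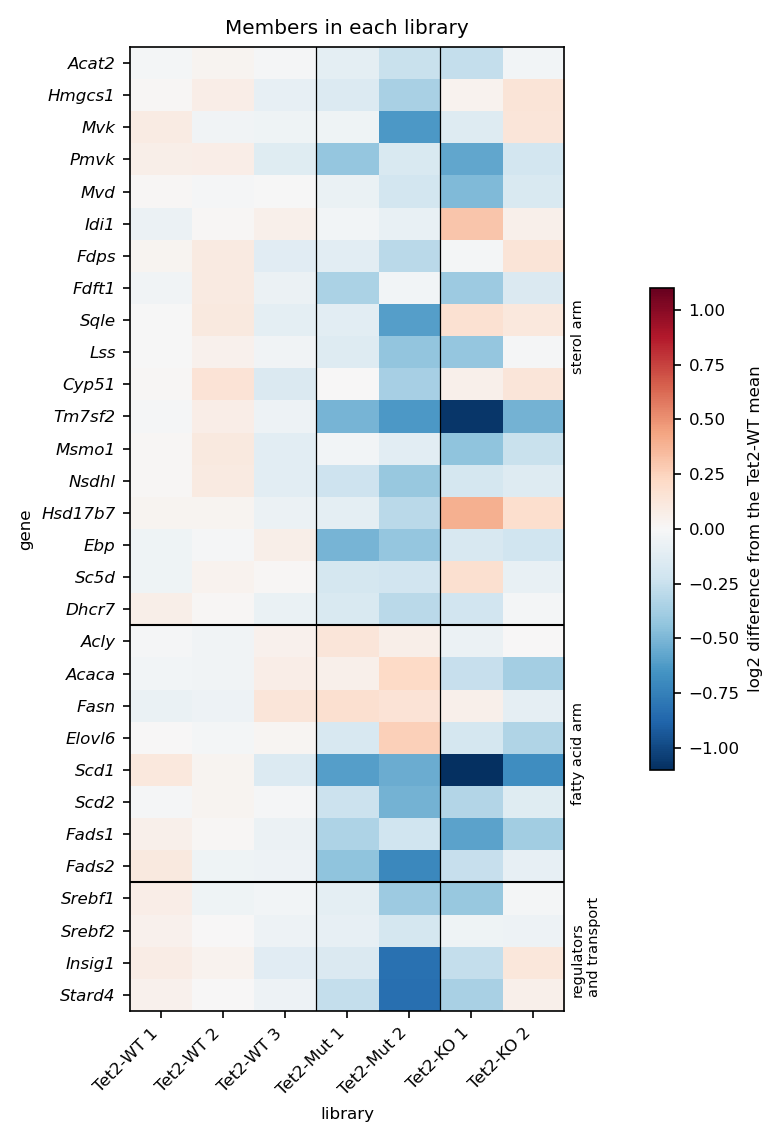
Each cell is the log2 difference of a gene (rows) in a library (columns) from the mean of the 3 Tet2-WT libraries, with blue for lower and red for higher; black lines separate the sterol arm, the fatty acid arm and the regulators, and the 3 groups of libraries. The deepest blue lies at Scd1 and Tm7sf2 in Tet2-KO replicate 1 and at Insig1 and Stard4 in Tet2-Mut replicate 2.

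In the fatty acid arm the desaturases were lower in both Tet2 genotypes, while the enzymes that supply and build the chain were not lower in Tet2-Mut. Of the 8 genes, 3 fell in Tet2-KO (Scd1, Fads1 and Acaca) and 2 in Tet2-Mut (Scd1 and Fads2), and none rose in either. Over all genes tested, 2.91% fell in Tet2-KO and 1.98% in Tet2-Mut, and in either direction 7.27% and 5.08% passed among genes at or above the mean level of the lowest member. The median log2 fold change of the arm was -0.24 in Tet2-KO and -0.12 in Tet2-Mut, beside -0.00 and 0.01 over all genes tested. In bulk RNA, fewer cells of a type and less RNA per cell cannot be told apart.

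Scd1, which encodes a stearoyl-CoA desaturase that makes monounsaturated fatty acids, lies on chromosome 19 from 44394450 to 44407709 (GRCm38.p6, the mm10 build). Its normalized counts were 6381, 6013 and 5305 in Tet2-WT, 3864 and 4025 in Tet2-Mut, and 2743 and 3669 in Tet2-KO. Every Tet2-Mut and Tet2-KO library was below every Tet2-WT library. The log2 fold change was -0.89 in Tet2-KO (SE 0.12, limma adjusted p = 0.00896) and -0.58 in Tet2-Mut (SE 0.12, adjusted p = 0.043). The difference between the genotypes, -0.31 for Tet2-KO against Tet2-Mut with a 95% interval of -0.62 to -0.01, did not pass (limma adjusted p = 0.241).

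Its neighbour and close paralog Scd2, from 44293676 to 44306864 on the same chromosome, had the higher counts of the pair. They were 28103, 28976 and 28218 in Tet2-WT, 24136 and 19829 in Tet2-Mut, and 22742 and 25970.2 in Tet2-KO. The libraries again did not overlap, but neither difference passed, with log2 fold changes of -0.38 in Tet2-Mut (limma adjusted p = 0.0584) and -0.23 in Tet2-KO (adjusted p = 0.174). The handling of reads shared by both paralogs is not stated in the labels.

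Fads1 and Fads2 encode the delta-5 and delta-6 desaturases of polyunsaturated fatty acid synthesis and are neighbours on chromosome 19, at 10182877 to 10196874 and 10062765 to 10101503. Fads1 stood at 4064, 3942 and 3739 in Tet2-WT, 3083 and 3370 in Tet2-Mut, and 2604 and 2993 in Tet2-KO. It fell in Tet2-KO by 0.49 on the log2 scale (SE 0.09, limma adjusted p = 0.0179), and its log2 fold change in Tet2-Mut was -0.28 (adjusted p = 0.112). For Fads2 the counts were 3879, 3491 and 3470 in Tet2-WT, 2649.5 and 2206 in Tet2-Mut, and 3032 and 3391 in Tet2-KO. It fell in Tet2-Mut by 0.58 (SE 0.10, limma adjusted p = 0.0263), with a log2 fold change of -0.17 in Tet2-KO (adjusted p = 0.359). Both genes were below every Tet2-WT library in all 4 clones. Set against each other, Fads2 was 0.41 higher in Tet2-KO than in Tet2-Mut (log2, limma adjusted p = 0.0668) and Fads1 0.21 lower (log2 fold change -0.21, adjusted p = 0.263), and neither difference passed.

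**Figure D2:**
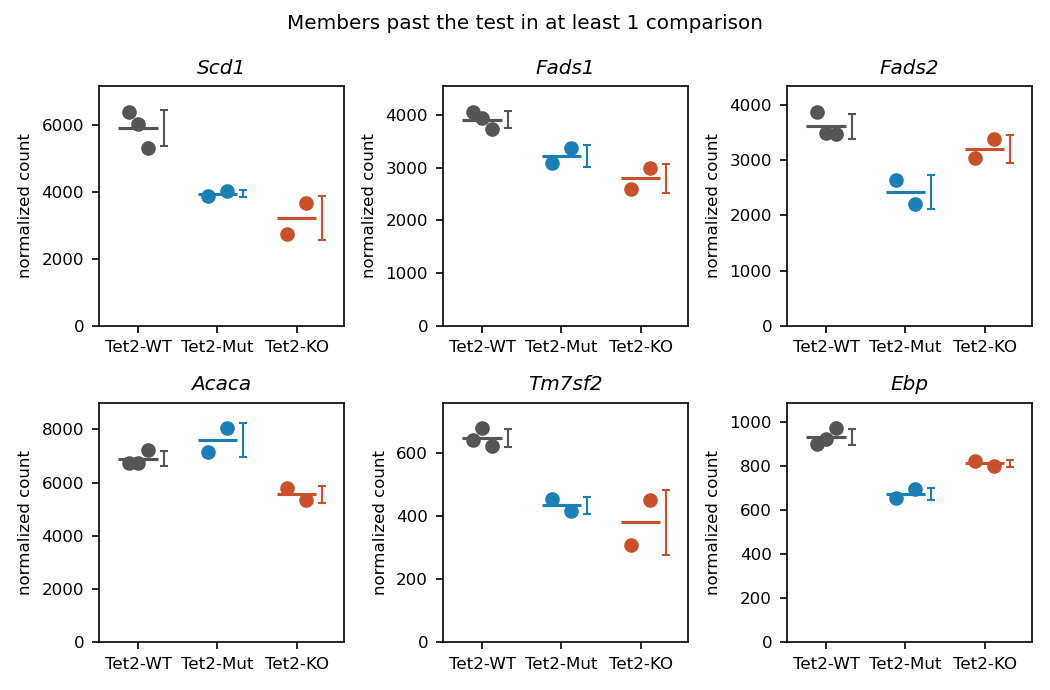
Normalized counts (y axis, from 0) of the 6 members past the test in at least 1 comparison, by genotype; points are libraries, horizontal lines are group means and the bars beside them are 1 SD. Scd1 reaches at most 4025 in the Tet2-Mut and Tet2-KO libraries and is at least 5305 in Tet2-WT, while Acaca is lowest in Tet2-KO.

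The chain-building enzymes were not lower in Tet2-Mut, where all 4 log2 fold changes were positive with a median of 0.12, while in Tet2-KO all 4 were negative like those of the desaturases, with a median of -0.15. The difference between these subgroups, which were split after their values were seen, was not tested. Acaca, which encodes the acetyl-CoA carboxylase that commits acetyl-CoA to fatty acids, had counts of 6740, 6728 and 7241 in Tet2-WT, 7158 and 8045 in Tet2-Mut, and 5791 and 5339 in Tet2-KO. Both Tet2-KO libraries were below all others, while Tet2-Mut overlapped Tet2-WT. Acaca fell in Tet2-KO by 0.31 on the log2 scale against Tet2-WT (SE 0.08, limma adjusted p = 0.0498) and by 0.45 against Tet2-Mut (SE 0.08, adjusted p = 0.017). It was the only member past the test between Tet2-KO and Tet2-Mut. There 6.19% of all genes passed (3.55% lower, mostly on chromosome 8, and 2.64% higher). Of genes at or above the mean level of the lowest member, 8.34% passed. With edgeR Acaca was again the only member (6.08% of all genes). DESeq2 called 5 members (10.4% of all genes), Acaca lower and Hmgcs1, Sqle, Hsd17b7 and Fads2 higher.

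Fasn, the fatty acid synthase, had counts of 33128, 33649 and 38226 in Tet2-WT, 39401 and 38809 in Tet2-Mut, and 36277 and 32679 in Tet2-KO. Acly, which supplies cytosolic acetyl-CoA to both pathways, stood at 26656, 26211 and 27844 in Tet2-WT, 29455 and 28077 in Tet2-Mut, and 25728 and 26896 in Tet2-KO. In both genes the Tet2-Mut libraries were above every Tet2-WT library, as in 20.9% of all genes, and Tet2-KO overlapped Tet2-WT. No difference passed. Their log2 fold changes in Tet2-KO were -0.02 (95% interval -0.20 to 0.16) for Fasn and -0.03 (-0.17 to 0.10) for Acly. Elovl6, the elongase of saturated chains, had counts of 10397, 10219 and 10574 in Tet2-WT, 9193 and 12438 in Tet2-Mut, and 9091 and 8279 in Tet2-KO. The Tet2-Mut clones lay on either side of Tet2-WT. Neither its log2 fold change of -0.26 in Tet2-KO (limma adjusted p = 0.206) nor that of 0.04 in Tet2-Mut passed.

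The calls in this arm rested on few libraries. With edgeR, Scd1 and Fads1 passed in Tet2-KO (6.39% of all genes), as did Tm7sf2 of the sterol arm, while Acaca did not (edgeR adjusted p = 0.0501). In Tet2-Mut Scd1 and Fads2 passed with edgeR (3.36% of all genes). Acaca in Tet2-KO lost its call against Tet2-WT without any 1 of the Tet2-WT or Tet2-KO libraries. The Scd1 call in Tet2-KO was lost without Tet2-WT replicate 1 (limma adjusted p = 0.0555) or replicate 2 (adjusted p = 0.0551), and also with 1 prior variance for all genes (adjusted p = 0.0884). The remaining calls of this arm were lost with 1 prior variance too. The Tet2-Mut calls of Scd1 and Fads2 were lost without any Tet2-WT library and without Tet2-Mut replicate 2. The Fads1 call was lost when any Tet2-WT library, or Tet2-KO replicate 1, was left out.

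**Figure D3:**
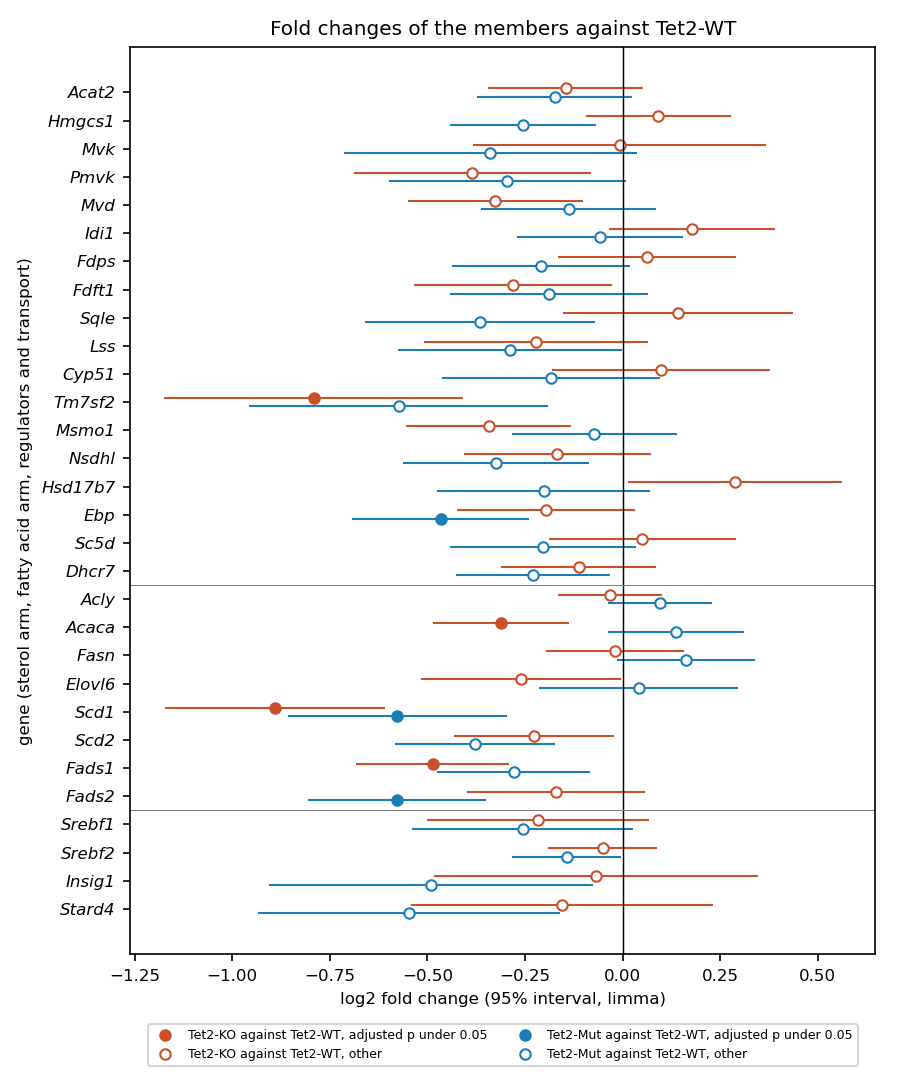
Log2 fold change of each member against Tet2-WT (x axis) with its 95% limma interval, for Tet2-KO in orange and Tet2-Mut in blue; filled points passed at an adjusted p under 0.05, and grey lines separate the sterol arm, the fatty acid arm and the regulators from top to bottom. All 18 sterol arm points of Tet2-Mut lie below 0, whereas those of Tet2-KO lie on both sides.

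The sterol arm was lower throughout in Tet2-Mut by small amounts, and mixed in Tet2-KO. All 18 enzymes had a negative log2 fold change in Tet2-Mut, from -0.57 to -0.06 with a median of -0.22, where 48.5% of all genes tested were negative. Of these, 1 (Ebp) fell, and 3.43% of all genes tested passed in either direction. Both Tet2-Mut libraries were below every Tet2-WT library for 13 of the 18, and the same held for 19.8% of all genes tested. In Tet2-KO 11 of the 18 were negative and 7 positive, with a median of -0.13, and 1 (Tm7sf2) fell, where 5.91% of all genes passed in either direction. Both Tet2-KO libraries were below Tet2-WT for 8 enzymes (22.8% of all genes) and above it for 2, Hsd17b7 and Sqle (21.9% of all genes).

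Promoter sequence from RefSeq (GRCm38.p6) was matched by symbol for 23 of the 30 members. Sterol genes are known to carry binding sites for the factor NF-Y, with the core CCAAT, beside sites of the SREBP factors. CCAAT was searched on both strands from 250 bases before to 50 after each start, and in genes with several starts any of them counted. It was found in 14 of 15 sterol arm genes, the exception being Acat2, in 2 of 5 fatty acid arm genes (Acly and Fasn) and in 3 of 3 regulators. Of all genes with a RefSeq promoter, 41.1% had it, and 43% of those that were also in the expression table. The SREBP-type motif TCACNCCAC was found in Hmgcs1 only, against 1.44% of all genes. GGGCGG, the Sp1 box, was found in 14 of 15 sterol arm genes, 2 of 5 fatty acid arm genes and 3 of 3 regulators. Of the genes in the expression table, 66.7% had it. CACGTG, also searched, was found in 3 of 15, 0 of 5 and 1 of 3, against 11.4% of those genes. These matches describe letters in a window, not bound sites.

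The 200 bases before the start are shown for Hmgcs1, which holds both motifs, for Ebp and Tm7sf2, the sterol arm genes that fell, and for Fasn and Fads2, a fatty acid gene that did not pass and one that fell. Capitals mark CCAAT or its reverse ATTGG, and in Hmgcs1 also the SREBP-type motif. Hmgcs1 is read on the plus strand at chr13:119690151-119690350, and the other 4 on the minus strand, Ebp at chrX:8193513-8193712, Tm7sf2 at chr19:6067851-6068050, Fasn at chr11:120824548-120824747 and Fads2 at chr19:10101504-10101703. The Fasn stretch lies inside the annotated gene, which runs from 120805958 to 120825166, so it precedes a start within the gene. The other stretches lie next to the annotated end of their gene.
Hmgcs1: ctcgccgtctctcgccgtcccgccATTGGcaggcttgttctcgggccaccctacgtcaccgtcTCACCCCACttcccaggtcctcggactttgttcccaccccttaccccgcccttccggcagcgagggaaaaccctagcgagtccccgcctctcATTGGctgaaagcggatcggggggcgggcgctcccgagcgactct
Ebp: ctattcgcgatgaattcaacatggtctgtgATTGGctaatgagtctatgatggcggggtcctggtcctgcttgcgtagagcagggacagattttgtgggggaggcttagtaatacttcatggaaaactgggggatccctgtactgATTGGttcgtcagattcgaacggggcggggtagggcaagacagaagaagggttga
Tm7sf2: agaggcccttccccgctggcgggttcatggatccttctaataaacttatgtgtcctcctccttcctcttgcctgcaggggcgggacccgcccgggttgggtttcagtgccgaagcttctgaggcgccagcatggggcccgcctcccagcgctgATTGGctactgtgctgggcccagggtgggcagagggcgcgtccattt
Fasn: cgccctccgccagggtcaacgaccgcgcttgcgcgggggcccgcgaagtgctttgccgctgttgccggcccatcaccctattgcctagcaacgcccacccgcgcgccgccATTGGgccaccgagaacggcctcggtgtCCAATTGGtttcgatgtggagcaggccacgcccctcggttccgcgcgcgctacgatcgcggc
Fads2: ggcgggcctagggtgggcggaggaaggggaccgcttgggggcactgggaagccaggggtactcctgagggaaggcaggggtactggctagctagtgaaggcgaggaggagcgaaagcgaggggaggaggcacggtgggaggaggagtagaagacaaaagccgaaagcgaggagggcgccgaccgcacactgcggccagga
Hmgcs1 and Ebp each have 2 CCAAT cores in this stretch, Tm7sf2 has 1, Fasn has 3 of which 2 overlap, and Fads2 has none.

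Among the enzymes from acetyl-CoA to squalene, Hmgcs1, which makes HMG-CoA, had counts of 10881, 11357 and 10123 in Tet2-WT, 9693 and 8403 in Tet2-Mut, and 11066 and 11914 in Tet2-KO. Tet2-Mut was below all other libraries and Tet2-KO overlapped Tet2-WT. Its log2 fold changes were -0.26 in Tet2-Mut (limma adjusted p = 0.125) and 0.09 in Tet2-KO (adjusted p = 0.56), and 0.35 for Tet2-KO against Tet2-Mut (adjusted p = 0.057). The kinase Pmvk stood at 1694, 1703 and 1484 in Tet2-WT, 1211 and 1444 in Tet2-Mut, and 1093 and 1413 in Tet2-KO. Each clone was below Tet2-WT, with log2 fold changes of -0.30 and -0.39 that did not pass. The first kinase, Mvk, ranged from 1199 to 1318 in Tet2-WT and was 1199 and 799.7 in the Tet2-Mut clones. Mvd, the decarboxylase that makes isopentenyl diphosphate, stood at 3139, 3073 and 3104 in Tet2-WT, 2943 and 2703 in Tet2-Mut, and 2219 and 2763 in Tet2-KO, with all clones below Tet2-WT. Together with Mvd, the other enzymes of this stretch (Acat2, the thiolase that starts the pathway, Idi1, Fdps and Fdft1) had log2 fold changes from -0.33 to 0.18 in Tet2-KO and from -0.21 to -0.06 in Tet2-Mut, and none passed. Fdft1, the squalene synthase, shares 774 bases with Ctsb in the annotation.

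From squalene onwards, Sqle encodes the epoxidase that is a rate-limiting step of the late pathway. It had counts of 4739, 5100 and 4407 in Tet2-WT, 4365 and 3105 in Tet2-Mut, and 5310.5 and 5148 in Tet2-KO. Tet2-KO lay above and Tet2-Mut below every Tet2-WT library, yet the log2 difference of 0.51 between them did not pass (95% interval 0.18 to 0.83, limma adjusted p = 0.0762). Hsd17b7, the ketoreductase of sterol demethylation, had the same order, with 667, 668 and 627 in Tet2-WT, 607 and 532 in Tet2-Mut, and 857 and 742 in Tet2-KO. The log2 difference of Tet2-KO against Tet2-Mut was 0.49 (95% interval 0.19 to 0.79, limma adjusted p = 0.0665).

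Ebp encodes the sterol isomerase that moves a double bond in the second ring, and lies on chromosome X from 8185329 to 8193512. Its counts were 899.6, 923 and 971 in Tet2-WT, 654 and 694 in Tet2-Mut, and 824 and 800.2 in Tet2-KO. The 3 groups did not overlap, with Tet2-KO between the others. Ebp fell in Tet2-Mut by 0.47 on the log2 scale (SE 0.10, limma adjusted p = 0.043), and its log2 fold change in Tet2-KO was -0.20 (adjusted p = 0.283). Tm7sf2 encodes a sterol reductase acting on the lanosterol-derived ring, and lies on chromosome 19 from 6062821 to 6067850, where it shares 9 bases with Vps51. Its counts were 643, 679.7 and 622 in Tet2-WT, 454 and 417 in Tet2-Mut, and 309 and 453 in Tet2-KO. All clones were below all Tet2-WT libraries, and Tm7sf2 fell in Tet2-KO by 0.79 (SE 0.17, limma adjusted p = 0.0312), beside a log2 fold change of -0.57 in Tet2-Mut (adjusted p = 0.0996). Ebp lost its call without any 1 of the Tet2-WT or Tet2-Mut libraries and with edgeR, and Tm7sf2 lost its call without any Tet2-WT library or without Tet2-KO replicate 1.

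Nsdhl, which acts with Msmo1 and Hsd17b7 in removing the methyl groups of lanosterol, had counts of 1353, 1437 and 1232 in Tet2-WT, 1143 and 999 in Tet2-Mut, and 1169 and 1214 in Tet2-KO. All 4 clones were below Tet2-WT. Msmo1 stood at 3818, 4079 and 3483 in Tet2-WT, 3710.2 and 3491 in Tet2-Mut, and 2784 and 3200 in Tet2-KO, where the log2 fold change was -0.34 (limma adjusted p = 0.0645). Only Tet2-KO was separate from Tet2-WT. Cyp51, Lss, Sc5d and Dhcr7, which demethylate lanosterol, close its rings and complete the last steps, had log2 fold changes from -0.22 to 0.10 in Tet2-KO and from -0.29 to -0.18 in Tet2-Mut, and none passed. Lss overlaps the noncoding gene 4930483K19Rik over 11269 bases, and the strand setting of the counting is not stated in the labels.

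Of the regulators, Srebf1, Insig1 and Stard4 differed between the clones of both genotypes. Over the 4 genes, the median log2 difference of replicate 2 from replicate 1 was -0.43 in Tet2-Mut and 0.39 in Tet2-KO. For Srebf2 alone the difference was -0.11 and -0.0035. The medians over all genes tested were -0.005 and -0.010. Insig1 had counts of 3640.0, 3543 and 3154 in Tet2-WT, 3083 and 1943 in Tet2-Mut, and 2873 and 3746 in Tet2-KO. Stard4, a carrier of cholesterol between membranes, stood at 1973, 1919 and 1833 in Tet2-WT, 1592 and 1071 in Tet2-Mut, and 1485 and 1977 in Tet2-KO. In both genes Tet2-Mut replicate 2 was the lowest of the 7 libraries and Tet2-KO overlapped Tet2-WT. Their log2 fold changes in Tet2-Mut, -0.49 and -0.55, did not pass (limma adjusted p = 0.177 and 0.116). Srebf1 stood at 4339, 4003 and 4042 in Tet2-WT, 3818 and 3124 in Tet2-Mut, and 3098 and 4069 in Tet2-KO. Srebf2 stood at 16727, 16249.7 and 15586 in Tet2-WT, 15189.8 and 14123 in Tet2-Mut, and 15633 and 15595 in Tet2-KO. Both were below Tet2-WT in each Tet2-Mut clone, with log2 fold changes of -0.26 and -0.14 that did not pass, and both overlapped Tet2-WT in Tet2-KO. Srebf1 counts cover the whole gene, so the SREBP-1a and SREBP-1c transcripts are not separated.

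**Figure D4:**
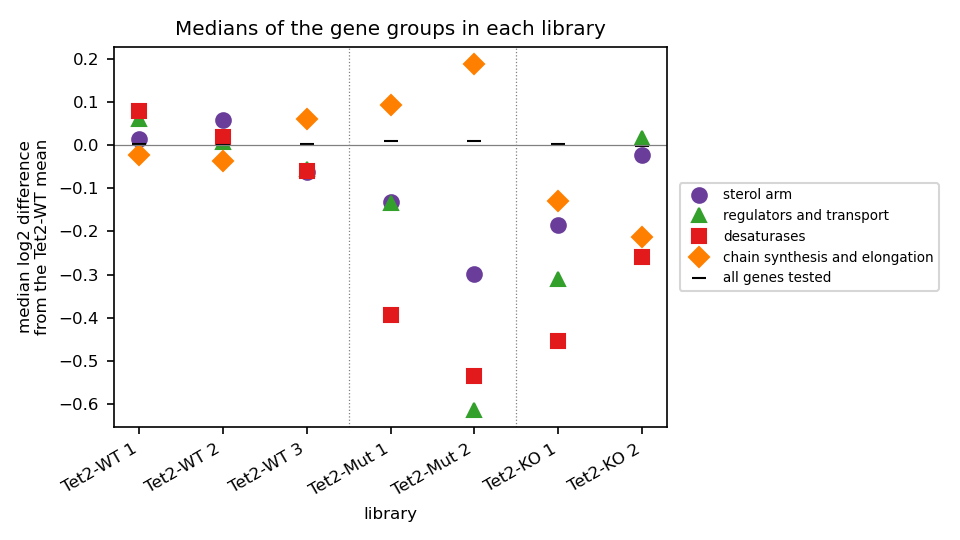
Median log2 difference from the Tet2-WT mean (y axis) of each gene group in each of the 7 libraries (x axis); black dashes are the median of all genes tested. The desaturases (red squares) lie below -0.25 in all 4 clones, the chain synthesis and elongation genes (orange) lie above 0 in Tet2-Mut and below 0 in Tet2-KO, and the regulators (green) reach -0.61 in Tet2-Mut replicate 2.

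Both Tet2-KO libraries were above both Tet2-Mut libraries for 9 sterol enzymes (23.3% of all genes) and below them for 1 (21.5% of all genes). Of the 18, limma called 0, with 7 at an unadjusted p under 0.05, beside 3499 of the 17338 genes tested. The median log2 difference of the 18 between Tet2-KO and Tet2-Mut was 0.20. Clones of 1 genotype also differed from each other in this arm. The median log2 difference of the 18 sterol enzymes from the Tet2-WT mean came to -0.13 and -0.30 in the Tet2-Mut clones (replicates 1 and 2) and to -0.19 and -0.02 in the Tet2-KO clones. Tet2-Mut replicate 2 was lower than replicate 1 for 15 of the 18, and lower for 50.8% of all genes tested. Tet2-KO replicate 2 was higher than replicate 1 for 13 of the 18 and lower for 5, where 51.5% of all genes were lower. The 4 desaturases had medians of -0.39 and -0.53 in the Tet2-Mut clones and -0.45 and -0.26 in the Tet2-KO clones. The 4 genes Acly, Acaca, Fasn and Elovl6 had medians of 0.09 and 0.19 in Tet2-Mut and -0.13 and -0.21 in Tet2-KO. Without Tet2-Mut replicate 1, the median log2 fold change in Tet2-Mut was -0.30 in the sterol arm and -0.077 in the fatty acid arm. Without Tet2-Mut replicate 2, these medians were -0.13 and -0.21.

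Of the 6 members past a test against Tet2-WT, Scd1, Fads1, Fads2 and Tm7sf2 lie on chromosome 19, where the fifth member of that chromosome is Scd2. The median log2 fold change of the 559 genes tested on chromosome 19 was 0.00 in Tet2-KO and -0.02 in Tet2-Mut, with 14 higher and 16 lower calls in Tet2-KO and 2 and 15 in Tet2-Mut. Chromosome 8, which holds Msmo1 and Mvd, had a median of -0.26 in Tet2-KO and 0.27 in Tet2-Mut over 861 genes. It held 140 of the 504 lower calls in Tet2-KO and 136 of the 250 higher calls in Tet2-Mut. For Tet2-KO against Tet2-Mut it held 396 of the 616 lower calls. In the same order, 11, 6 and 3 of its genes were called the other way. The shares over all genes given here include these calls. The log2 fold changes of Msmo1 and Mvd in Tet2-KO, -0.34 and -0.33, stood beside that median, and in Tet2-Mut they were -0.07 and -0.14. Chromosome 14, which holds Fdft1, had a median of 0.49 in Tet2-Mut replicate 2 and between -0.05 and 0.02 in the other 6 libraries. Fdft1 was 4143 in Tet2-Mut replicate 1 and 5177 in replicate 2. The part of these chromosome-wide differences in the values of Msmo1, Mvd and Fdft1 was not tested.

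**Figure D5:**
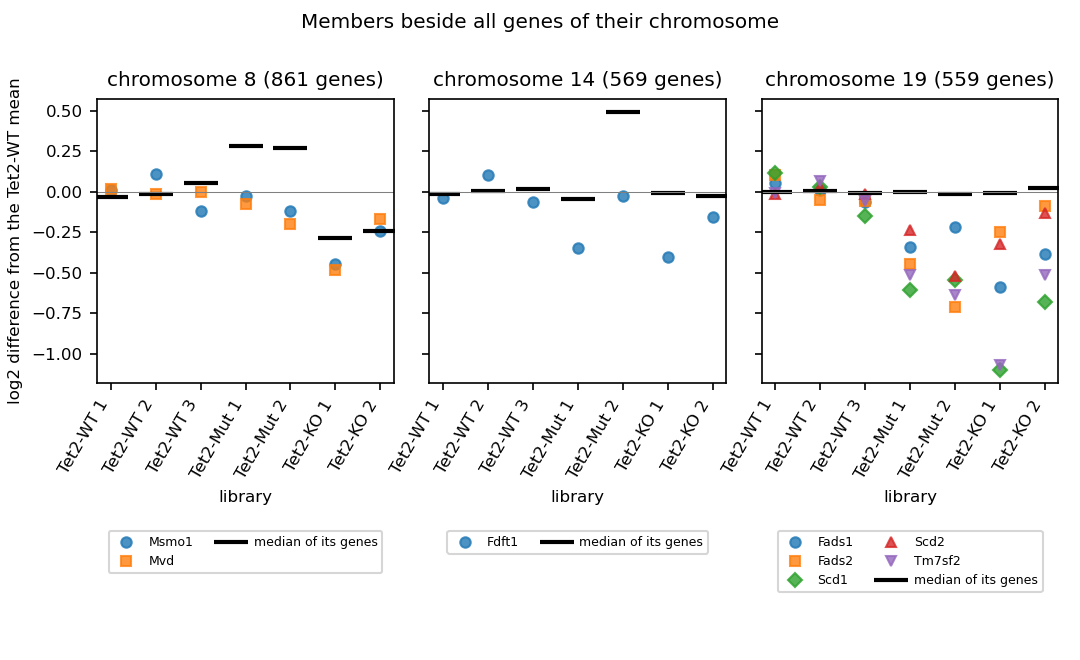
Log2 difference from the Tet2-WT mean (y axis) in each library (x axis) for the members on chromosomes 8, 14 and 19 (coloured points), beside the median of all genes tested on that chromosome (black bars). The chromosome 19 median stays near 0 in all 7 libraries while its 5 members are below 0 in all 4 clones.

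Other genes of lipid metabolism changed in part, and their counts stand beside 3% of all genes higher and 2.91% lower in Tet2-KO, and 1.44% higher and 1.98% lower in Tet2-Mut. Of 8 genes of SREBP processing and sterol sensing, 1 fell in Tet2-KO, Mbtps1, the site-1 protease that cleaves SREBP. It was 0.42 lower than Tet2-WT (log2 fold change -0.42, limma adjusted p = 0.00896) and 0.67 lower than Tet2-Mut (-0.67, adjusted p = 0.00382). Mbtps1 lies on chromosome 8, so the shift of that chromosome stands beside it. Of 17 genes of cholesterol uptake, transport, storage and efflux, Scarb1, the HDL receptor, fell by 0.76 in Tet2-Mut and the exporter Abca1 rose by 0.72. The log2 fold change was negative for 12 of the 17 in Tet2-Mut and positive for 5, with a median of -0.22, like that of the sterol arm. In Tet2-KO 10 were negative and 7 positive, with a median of -0.03. Soat1, which esterifies cholesterol, was 0.95 higher in Tet2-KO than in Tet2-Mut (log2, limma adjusted p = 0.00509), with counts of 4924 and 4093 against 2461 and 2199.5. Abca1 was 0.74 lower in the same comparison (log2 fold change -0.74, adjusted p = 0.0255).

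A further list held 24 genes of fatty acid synthesis, elongation and activation and of glycerolipid synthesis. Of these, 2 rose and 3 fell in Tet2-KO (3% and 2.91% of all genes). In Tet2-Mut 1 rose and 1 fell (1.44% and 1.98% of all genes). In each genotype 13 of the 24 had a negative log2 fold change, with medians of -0.05 in Tet2-KO and -0.08 in Tet2-Mut. Mid1ip1, an activator of acetyl-CoA carboxylase, rose by 0.78 on the log2 scale in both, and Acsl4 by 0.69 in Tet2-KO. Acss2, which makes acetyl-CoA from acetate, fell by 0.80 in Tet2-KO, Acsl1 by 0.60 and Lpin1, of glycerolipid synthesis, by 0.56. The citrate carrier Slc25a1 fell by 0.58 in Tet2-Mut. Against Tet2-Mut, Acsl4 was 0.80 higher in Tet2-KO, while Acsl1 and Tecr, an enzyme of chain elongation, differed by -0.77 and -0.46. Acsl1 and Tecr also lie on chromosome 8. Of 18 genes of fatty acid oxidation, 1 rose and 2 fell in Tet2-KO and 1 fell in Tet2-Mut, where 5.91% and 3.43% of all genes passed in either direction. The log2 fold change was negative for 16 of the 18 in Tet2-KO (median -0.20) and for 14 in Tet2-Mut (median -0.07). Over all genes tested, 50.4% and 48.5% were negative. A lower median in Tet2-KO was thus not particular to the fatty acid arm. Cpt1a, which controls entry of fatty acids into mitochondria, had counts of 3042, 3027 and 2658 in Tet2-WT, 2215 and 2552 in Tet2-Mut, and 1372 and 1712 in Tet2-KO. It fell by 0.92 in Tet2-KO (SE 0.12, limma adjusted p = 0.00722). The carnitine carrier Slc25a20 fell by 0.74 in Tet2-KO and by 0.69 in Tet2-Mut, and Acadl rose by 0.53 in Tet2-KO.

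Markers of the feeder fibroblasts moved with the Tet2-KO group. The summed normalized count of the 14 fibroblast markers measured was 3319 to 3957 in Tet2-WT, 3645 and 5435 in Tet2-Mut, and 7875 and 14926 in Tet2-KO. Of the 14, 7 rose in Tet2-KO (3% of all genes) and 0 fell, and all 14 were above Tet2-WT in both Tet2-KO libraries (21.9% of all genes), with no marker at 0 in any library and Twist2 at 3 reads or fewer in at least 1. Lum, Dcn and Fap, the other fibroblast markers listed, were not among the genes of the RNA-seq table, so they had no value in any group. In Tet2-Mut limma called 0 of the 14, with 3 at an unadjusted p under 0.05, beside 3651 of the 17338 genes tested. The log2 fold change in Tet2-Mut was positive for 12 of the 14 and negative for 2, with a median of 0.51. Both Tet2-Mut libraries were above Tet2-WT for 5 markers (20.9% of all genes) and below it for 1 (19.8%). The median log2 difference from the Tet2-WT mean was 0.73 in Tet2-Mut replicate 1 and 0.23 in replicate 2. The part of the fibroblast markers in the lower desaturases and Tm7sf2 was not tested. The 10 ESC markers summed to 312152 to 317094 in Tet2-WT, 309194 and 321056 in Tet2-Mut, and 262715 and 313609 in Tet2-KO. Of the 10, Tdgf1 fell in Tet2-KO (2.91% of all genes) and Nanog in Tet2-Mut (1.98%), and none rose in either. The log2 fold change was negative for 9 of the 10 in Tet2-KO (50.4% of all genes) and for 5 in Tet2-Mut (48.5%). The median log2 difference of the 10 from the Tet2-WT mean was -0.27 in Tet2-KO replicate 1 and -0.01 in replicate 2. The part of this in the values of the members was not tested.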

How the data were processed

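The RNA-seq data comprised 7 libraries; samples of CUT&Tag (18) and bisulfite sequencing (3) were not analysed here. The deposited values are a linear signal, the authors' read counts per gene after DESeq2 scaling. The submitters' processing notes name mm10 as a build and list DESeq2, featureCounts, STAR (2.7.3a) and Trim Galore (0.6.5) among their tools, without annotation, strand setting or gene filter. In each library 100% of values were whole multiples of 1 step within 0.01 reads, and these recovered reads were used for edgeR and DESeq2, where edgeR called 1108, 582 and 1054 genes in Tet2-KO against Tet2-WT, Tet2-Mut against Tet2-WT and Tet2-KO against Tet2-Mut.

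A gene entered the test if 2 or more libraries reached a value of 10. The test was limma 3.58.1 in R 4.3.3 on log2(value + 1), with 1 model of 3 group means over 7 libraries, a prior variance that follows the mean (5.03 degrees of freedom added to 4) and Benjamini-Hochberg adjustment over 17338 genes. Groups of 2 clones share the estimate of spread with Tet2-WT, whose libraries lay closer together (chi-square per degree of freedom between reads of 7.19 to 13.4) than the Tet2-Mut (45.1) or Tet2-KO clones (34.2). None of these 5 pairs of libraries of 1 group agreed within sampling noise. Replicate numbers only name libraries. Only the limma step was run on simulated counts. These had the same spread in every group, so the unequal spread given above, edgeR and DESeq2 were not covered.

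Alternatives were pseudocounts of 0.5 and 10, no filter, upper quartile scaling, only the 2 groups compared, a replicate block, 1 prior variance, edgeR 4.0.16 (quasi-likelihood, TMM), DESeq2 1.42.0 and each library left out. Members, pathway lists and markers were chosen with earlier results of these data known. The split of the fatty acid arm into desaturases and chain-building enzymes was made after its values were seen, as was the choice of promoters shown. A list of further sterol enzymes is not reported here. Values per library are given for members past a test and for the 4 smallest p-values per comparison and arm, for some other members in addition. Promoters and positions are from RefSeq GRCm38.p6.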

Additional observations from a re-analysis of the deposited data

Results flagged for a closer look

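Acaca was the only member whose 2 genotype effects differed by a test of the difference itself. The Tet2-KO effect on Acaca was 0.45 below the Tet2-Mut effect on the log2 scale (-0.45, limma adjusted p = 0.017). The log2 fold change was -0.31 in Tet2-KO and 0.14 in Tet2-Mut, and both Tet2-KO libraries were below both Tet2-Mut libraries. Over the 16 alternatives the difference ranged from -0.53 to -0.36 and its adjusted p from 0.000447 to 0.135, and it did not pass in 6 of them.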

How the results depend on the processing

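With clones as replicates and 4 residual degrees of freedom, the number of calls depended on the estimate of spread, while no member past a test changed sign under any alternative run. Upper quartile scaling, both pseudocounts and no filter kept each count of members within 1.5 times the main one. With edgeR, 3, 2 and 1 members passed in Tet2-KO against Tet2-WT, Tet2-Mut against Tet2-WT and Tet2-KO against Tet2-Mut, where limma gave 4, 3 and 1. In the same order of comparisons, fitting only the 2 groups compared gave 7, 5 and 0 members and 2153, 901 and 0 genes overall. DESeq2 gave 6, 6 and 5 members and 1994, 1566 and 1809 genes. With limma and 1 prior variance for all genes, 0, 0 and 0 members passed (7, 8 and 6 at an unadjusted p under 0.05) and 19, 0 and 10 genes overall. The cause was not tested. In the main fit, in the same order, 11, 14 and 11 of the 30 members had an unadjusted p under 0.05. The same held for 4019, 3651 and 3499 of the 17338 genes tested. This share over all genes was not counted for the alternatives.

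Same-numbered libraries did not deviate together (correlations of deviations from -0.07 to 0.09), so the numbers were not taken to pair samples. With the replicate block, in which Tet2-WT replicate 3 has no partner, limma called 0, 0 and 0 members (8, 14 and 8 at an unadjusted p under 0.05) and 15, 7 and 467 genes.

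Leaving out each library in turn, members past the test ranged from 0 to 7 in Tet2-KO against Tet2-WT, from 0 to 9 in Tet2-Mut against Tet2-WT and from 0 to 10 in Tet2-KO against Tet2-Mut. Genes overall ranged from 85 to 2158, from 6 to 2198 and from 530 to 2679. Tet2-KO against Tet2-WT had 0 members without Tet2-WT replicate 1 or 2 (6 at an unadjusted p under 0.05 in each), and 1 without Tet2-WT replicate 3 or Tet2-KO replicate 1. Tet2-KO against Tet2-Mut had 10 without Tet2-Mut replicate 1, 8 of them higher in Tet2-KO. The sterol arm median ranged from -0.19 to -0.024 in Tet2-KO against Tet2-WT and from 0.064 to 0.24 in Tet2-KO against Tet2-Mut. The fatty acid arm median ranged from -0.21 to -0.077 in Tet2-Mut against Tet2-WT and from -0.22 to -0.11 in Tet2-KO against Tet2-Mut. The lowest count of a member in any library was 299 reads (Tm7sf2), so depth did not limit the detection of a member.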

Other observations

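Ratios of 2 members within a library do not depend on the scaling of the library. They are not per length, so only their differences between libraries can be read. The ratio of Fads1 to Fads2 counts was 1.05, 1.13 and 1.08 in Tet2-WT, 1.16 and 1.53 in Tet2-Mut, and 0.859 and 0.883 in Tet2-KO. Tet2-Mut lay above and Tet2-KO below every Tet2-WT library. How often other pairs of genes separate in this way was not counted. The ratio of Scd1 to Scd2 was 0.227, 0.208 and 0.188 in Tet2-WT, 0.16 and 0.203 in Tet2-Mut, and 0.121 and 0.141 in Tet2-KO. It was lowest in Tet2-KO and overlapped between Tet2-Mut and Tet2-WT. The ratio of Insig1 to Srebf2 was 0.138 in Tet2-Mut replicate 2 and between 0.184 and 0.24 in the other 6 libraries. That of Scd1 to Fasn was 0.193, 0.179 and 0.139 in Tet2-WT, 0.0981 and 0.104 in Tet2-Mut, and 0.0756 and 0.112 in Tet2-KO. For Srebf1 to Srebf2, both Tet2-Mut and Tet2-KO overlapped Tet2-WT.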
